A study of Macaca mulatta with 24 samples.

Results

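The axon guidance genes were read from the LGN, the thalamic nucleus that relays vision from the retina to the cortex, in infant rhesus macaques raised with 1 eye deprived of vision. They are the genes of the semaphorins SEMA3 to SEMA7, the plexins, NRP1 and NRP2, the ephrins and Eph receptors, SLIT1 to SLIT3, the Robos, the netrins NTN1, NTN4, NTNG1 and NTNG2, and the netrin receptors DCC and UNC5. They were chosen by symbol, as the probe sets that the platform annotation gives exactly 1 such symbol, that reached a signal of 100 on 1 or more of the 24 arrays. This gave 85 probe sets of 57 genes, out of 37623 probe sets at that minimum. The symbol prefix UNC5 also took 3 probe sets of UNC50, a protein of the Golgi and nuclear membranes, and 1 of UNC5CL. Neither is a guidance receptor, and these 4 probe sets are counted with the 85 but not described among the families.

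Each array held 1 LGN layer of 1 of 2 animals. In 1 animal the left eye was covered with an opaque contact lens from birth for 2 months, and in the other the lids of the left eye were closed by tarsorrhaphy at birth and kept so for 4 months. The magnocellular layers are numbered 1 and 2, the parvocellular ones 3 to 6. Input from the deprived eye reaches layers 2, 3 and 5 on its own side of the brain and layers 1, 4 and 6 on the opposite side. Parvocellular layers gave 8 deprived and 8 nondeprived arrays, magnocellular layers 4 of each. The nondeprived layers belong to the deprived animals, so every group shares an animal deprived in 1 eye from birth, and no array came from a normally reared animal. The layers were cut out by laser capture without the koniocellular layers, several sections were pooled into a sample, and the RNA was amplified in 2 rounds. The length of deprivation, its method and the animal cannot be told apart. The p-values rest on the spread among layers within an LGN and on how far the differences vary from LGN to LGN. Differences in level between the LGNs are fitted and taken out, and spread between animals is not in the p-values.

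Guidance molecules steer growing axons by attraction and repulsion. Semaphorins act through plexins, those of the SEMA3 class mostly with a neuropilin as partner. Ephrins on the surface of a cell bind Eph receptor tyrosine kinases on its neighbour. Slits repel axons through Robos, and netrins attract through DCC or repel through UNC5 receptors. In the visual thalamus ephrin-A and EphA gradients are known for ordering retinal axons into maps and eye-specific territories, and many guidance genes stay expressed in mature neurons and glia, where they act at synapses and dendrites.

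The array signal is a linear intensity in arbitrary units, scaled by the authors to a common mean on each array. Levels of different probe sets are not compared here, since probes differ in brightness. Log2 differences are differences of mean log2 signal from limma, in which the LGN entered as a block, and adjusted p-values are adjusted over all 37623 probe sets, with a call at an adjusted p under 0.05. Signals of 100 or more on all 24 arrays were read for 35 of the 85 probe sets, and 56 had a mean of 100 or more over the arrays. Another 7 probe sets reached 100 on 1 array. Of 63 genes with such a symbol, 6 had no probe set that reached 100 on any array: DCC, NTN1, ROBO4, SEMA3A, SEMA4F and SEMA7A. A signal under 100 is not a measure of absence.

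The captured tissue carried markers of neurons and of glia. The 4 measured of 8 thalamic relay neuron markers, PVALB, TCF7L2, PRKCD and RORA, had a summed signal of 44211 to 71608 over the arrays. The 4 measured of 10 oligodendrocyte markers summed to 50000 to 106144 and the 6 measured of 8 astrocyte markers to 47960 to 97646, so that myelin and astrocyte RNA were in the samples, while the 2 measured blood markers summed to 133 to 576 in parvocellular arrays. In such samples fewer cells of a type and less RNA per cell cannot be told apart. The array of the deprived layer 2 (ipsilateral, 2 months) stood apart. Its ratio of 3' to 5' GAPDH signal was 50.8, against 1.97 to 14.3 on the others, and its mean correlation with the other arrays was 0.811, against 0.885 to 0.919. All 5 differences between layer classes below held without it. The 14.3 and the 0.885 were both of the nondeprived layer 2 (contralateral, 2 months), also magnocellular. The highest ratio in parvocellular arrays was 7.88. Without this nondeprived layer 2 the call of EFNB2 was lost, as it was without most single arrays. The part of RNA quality in the differences between layer classes was not tested.

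**Figure D1:**
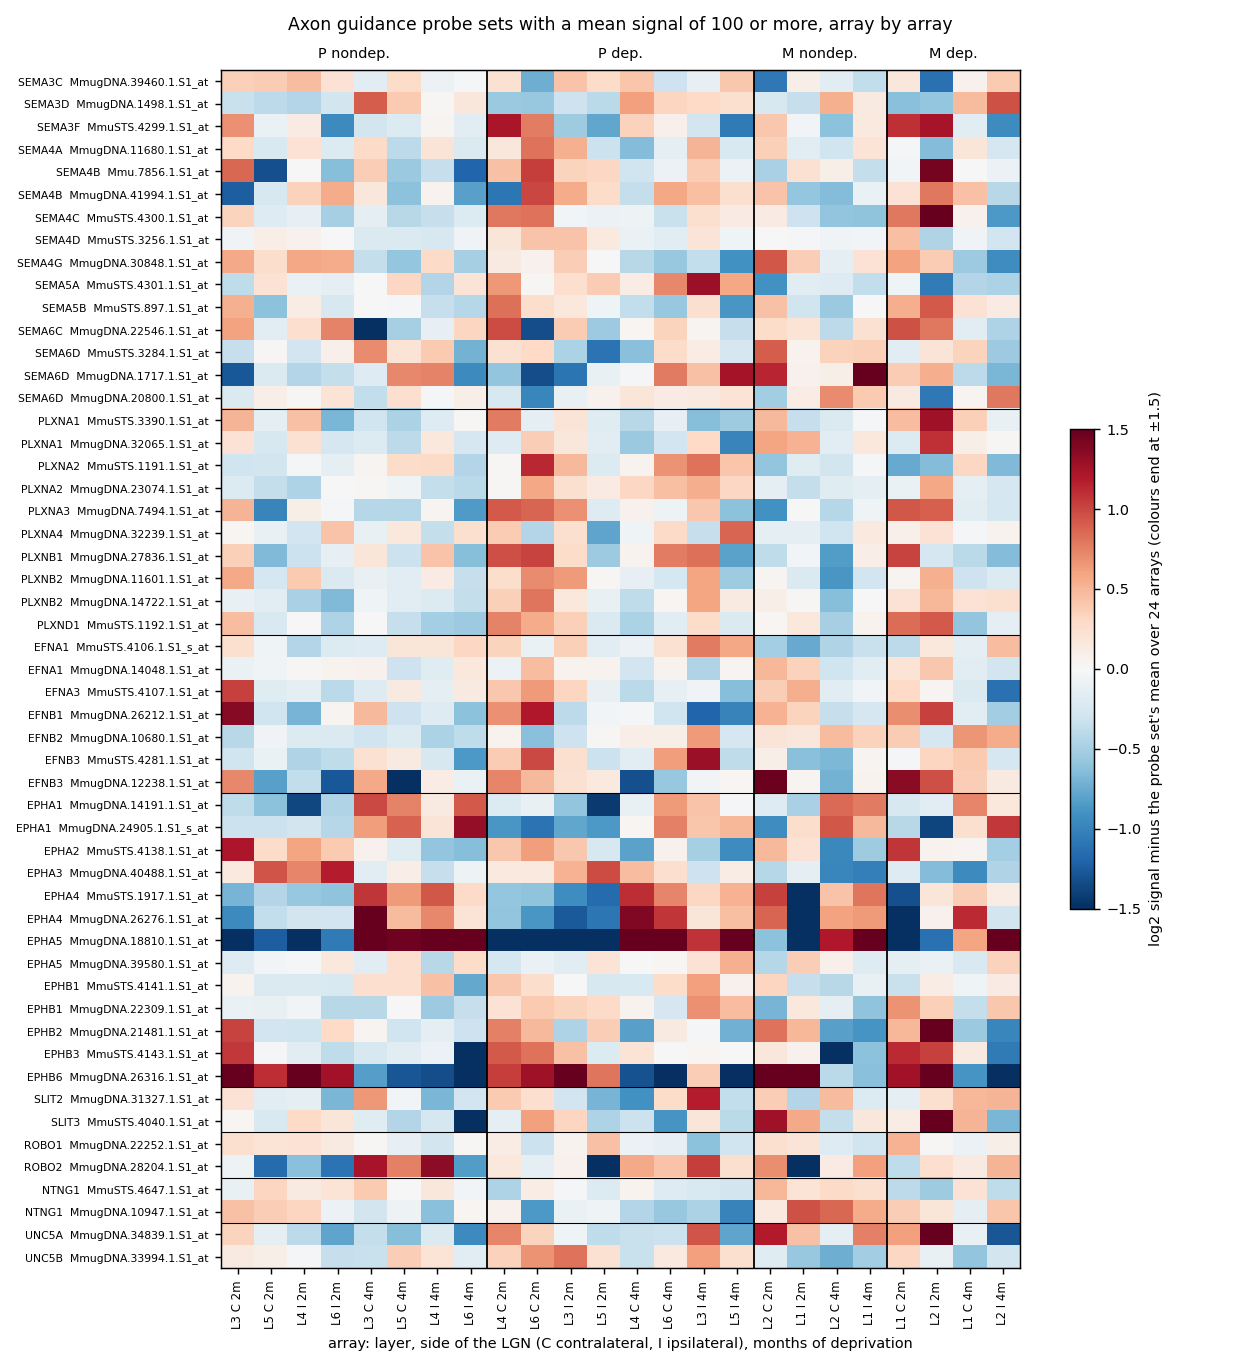
Signals of the 53 probe sets of a guidance family with a mean of 100 or more, by array, as log2 signal minus the mean of that probe set over the 24 arrays (colour scale ending at ±1.5). Columns are arrays, grouped as parvocellular (P) and magnocellular (M), nondeprived and deprived, and lines between rows part the families. EPHA3 lies higher in parvocellular than in magnocellular columns, and EPHA5 (MmugDNA.18810.1.S1_at) and EPHB6 part by animal.

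Between layer classes, 5 of the 85 probe sets passed the test, 3 of them higher in parvocellular layers (EPHA3, SEMA5A and UNC5B) and 2 lower (NTNG1 and EFNB2). Over all 37623 probe sets, 3.6% passed, 2.25% higher and 1.35% lower. At an unadjusted p under 0.05 there were 15 of the 85, 7 higher and 8 lower, against 16.4% of all probe sets. The median log2 difference of the 85, parvocellular over magnocellular, was -0.09, and that of all probe sets was -0.03. Nothing particular to guidance genes is read from so few calls. In none of the 85 did the 16 parvocellular arrays stand clear of the 8 magnocellular ones, which was so for 0.0797% of all probe sets.

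EPHA3 (MmugDNA.40488.1.S1_at), an Eph receptor for ephrin-A ligands, had the lowest p of the 85 in this comparison. The nondeprived parvocellular arrays read 1453 to 4206 with a median of 2017, and the deprived ones 1489 to 3646 with a median of 2127. The nondeprived magnocellular arrays read 911, 938, 1373 and 1684, and the deprived ones 956, 1182, 1357 and 1617. Most parvocellular values lay above all magnocellular ones, though the ranges met only between 1453 and 1684. The mean was 2401 ± 821 (SD, n = 16) in parvocellular and 1252 ± 306 (SD, n = 8) in magnocellular layers, a log2 difference of 0.90 (SE 0.14, adjusted p = 0.000171 from limma). The difference was positive in 4 of 4 LGNs and kept its call with each of the 24 arrays left out. It was 0.95 in the animal of 2 months (adjusted p = 0.0496 from limma) and 0.86 in that of 4 months (adjusted p = 0.0212), 0.96 in nondeprived arrays alone (adjusted p = 0.00775) and 0.85 in deprived arrays alone, where it did not pass (adjusted p = 0.143). Its log2 difference with deprivation was -0.03 (SE 0.14) in parvocellular layers. A second EPHA3 probe set stayed under 100 on every array.

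SEMA5A (MmuSTS.4301.1.S1_at), a transmembrane semaphorin with thrombospondin repeats, was higher in parvocellular layers as well. It read 1080.4 to 1819 (median 1410.1) in nondeprived and 1481 to 3568 (median 2053) in deprived parvocellular arrays. In magnocellular arrays it read 782, 1137, 1286 and 1309 without and 708, 1052, 1079.9 and 1399.9 with deprivation. All deprived parvocellular arrays lay above all magnocellular ones, whereas the nondeprived parvocellular arrays overlapped them. How often such a separation occurs over all probe sets was not counted, so little is read from it. The log2 difference between classes was 0.69 (SE 0.15, adjusted p = 0.00781 from limma), positive in 4 of 4 LGNs. It was 1.01 (SE 0.22, adjusted p = 0.0908 from limma) in deprived arrays alone and 0.36 (SE 0.17, adjusted p = 0.418) in nondeprived arrays alone, and within each animal alone it did not pass (adjusted p = 0.213 at 2 months and 0.126 at 4 months).

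UNC5B (MmugDNA.33994.1.S1_at), a netrin receptor that mediates repulsion, read 808 to 1334 (median 1049.9) in nondeprived and 817 to 1805 (median 1263) in deprived parvocellular arrays. The magnocellular arrays read 619.6, 696, 716 and 908 without and 685, 848, 952 and 1277 with deprivation. The ranges overlapped, with the lowest readings in nondeprived magnocellular layers. The log2 difference between classes was 0.50 (SE 0.13, adjusted p = 0.0222 from limma), positive in 4 of 4 LGNs, and it did not pass within either animal alone (0.37 and 0.63). It was also lost without the nondeprived ipsilateral or the deprived contralateral layer 1 at 4 months. Among the other netrin receptors UNC5A had a log2 difference of -0.57 and the MmuSTS.2435.1.S1_at probe set of UNC5C one of 0.60, with adjusted p-values of 0.241 and 0.239 from limma.

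NTNG1 encodes netrin-G1, a netrin anchored to the membrane of thalamic axons that binds the ligand LRRC4C rather than DCC. The probe set MmugDNA.10947.1.S1_at read 116 to 245 (median 177) in nondeprived and 89.6 to 188 (median 131) in deprived parvocellular arrays. The magnocellular arrays read 199, 264, 327 and 349 without and 164, 204, 233 and 239 with deprivation. Magnocellular values were mostly the higher ones and the ranges overlapped. The log2 difference was -0.63 (SE 0.17, adjusted p = 0.0352 from limma), negative in 4 of 4 LGNs. The other NTNG1 probe set (MmuSTS.4647.1.S1_at) did not show it, with a mean of 9643 ± 1522 (SD, n = 16) in parvocellular and 10013 ± 2546 (SD, n = 8) in magnocellular layers and a log2 difference of -0.03 (SE 0.10, adjusted p = 0.925). The call of the first probe set was lost with 9 of the 24 arrays left out, under quantile normalization (adjusted p = 0.101) and after scaling to the same median (adjusted p = 0.114).

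EFNB2 (MmugDNA.10680.1.S1_at), a transmembrane ephrin that binds EphB receptors and EphA4, was lower in parvocellular layers. It read 384 to 516 (median 448) in nondeprived and 345 to 829 (median 549) in deprived parvocellular arrays. The magnocellular arrays read 599.9, 611, 679 and 743 without and 448, 697, 786 and 847 with deprivation. Without deprivation the classes did not overlap, and with deprivation they did. For such subsets, here and for SEMA5A, the share over all probe sets was not counted, so little is read from them. In nondeprived arrays alone the log2 difference was -0.58 (adjusted p = 0.101 from limma). In deprived arrays alone it was -0.38 (adjusted p = 0.559), so that it passed in neither. Over all arrays the log2 difference was -0.48 (SE 0.13, adjusted p = 0.0456 from limma), negative in 4 of 4 LGNs. The call held in 4 of 24 runs with 1 array left out. A dim second probe set, at 100 or more on 5 arrays, had a log2 difference of -1.11 (SE 0.59, adjusted p = 0.358).

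**Figure D2:**
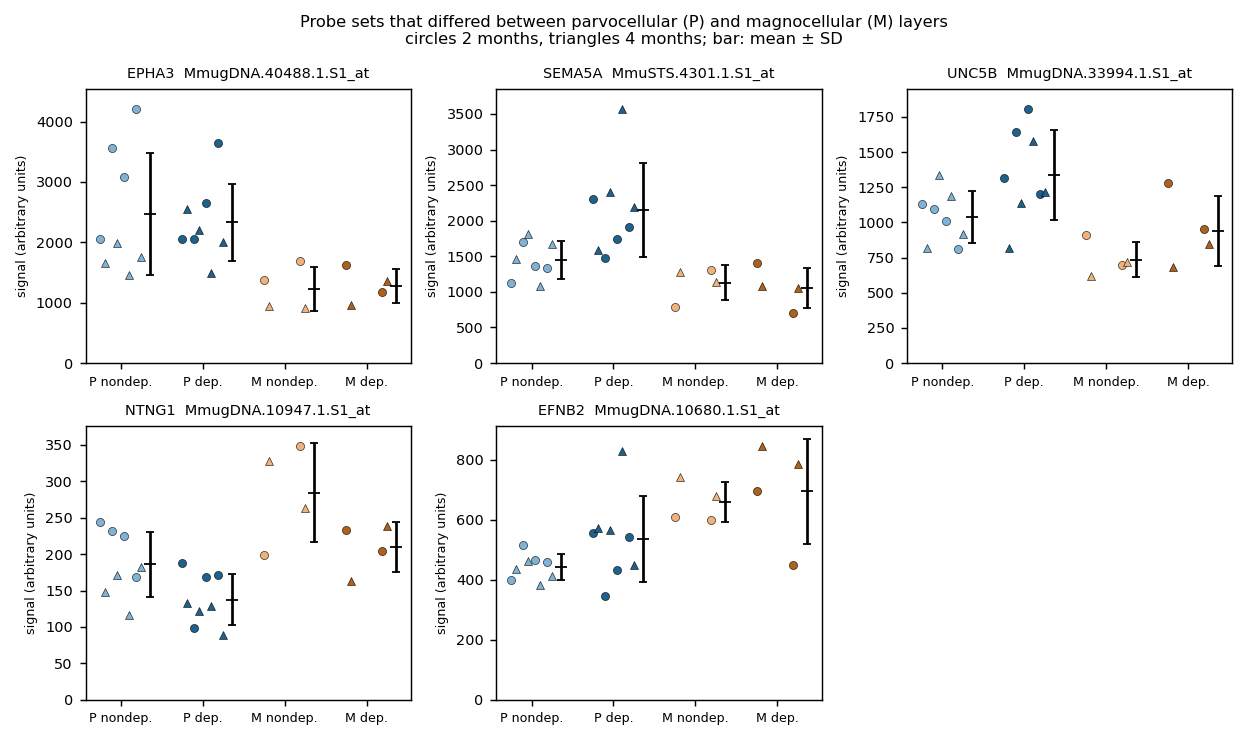
Signal (arbitrary units, axes from 0) of the 5 probe sets that passed the test between layer classes, with each array a point in its group, circles for 2 and triangles for 4 months, and bars for the mean ± SD. EPHA3, SEMA5A and UNC5B sit higher in parvocellular (P) and NTNG1 and EFNB2 in magnocellular (M) groups, with overlap in each when deprived and nondeprived arrays are pooled.

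None of the other guidance ligands and receptors passed between layer classes. Next by p were PLXNA2 (MmuSTS.1191.1.S1_at), a receptor for SEMA6 ligands and part of SEMA3 receptor complexes, with a log2 difference of 0.53 (SE 0.17, adjusted p = 0.0792 from limma), and EFNA1 (MmuSTS.4106.1.S1_s_at), a GPI-anchored ephrin, with 0.37 (SE 0.12, adjusted p = 0.0981). The other probe set of EFNA1 (MmugDNA.14048.1.S1_at) gave -0.10 (SE 0.10). In the other direction, SLIT3 (MmuSTS.4040.1.S1_at), a ligand of Robos, had -0.63 (SE 0.23, adjusted p = 0.149), PLXNA1 (MmugDNA.32065.1.S1_at) -0.39 (SE 0.15, adjusted p = 0.184) and EFNB3 (MmugDNA.12238.1.S1_at) -0.69 (SE 0.28, adjusted p = 0.211). SLIT3 read 148 to 819 in magnocellular and 74.6 to 366 in parvocellular arrays, and all 4 Slit probe sets had a negative value. EPHA5 (MmugDNA.39580.1.S1_at), a receptor for ephrin-A ligands, had 3659.8 ± 630.0 (SD, n = 16) in parvocellular and 3532 ± 706 (SD, n = 8) in magnocellular layers, and ROBO1 (MmugDNA.22252.1.S1_at), a Slit receptor, 3768 ± 667 and 3995 ± 749. These differed by less than the spread between arrays. The 4 neuropilin probe sets all had a mean under 100.

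Some markers of other cells also differed between the classes. GAD1, which makes GABA, had a log2 difference of -0.56 (adjusted p = 0.00213 from limma) and DLX1, a transcription factor of GABAergic neurons that was under 100 on 18 arrays, -1.95 (adjusted p = 0.0102). Of the 5 measured of 9 GABAergic neuron markers 4 were negative and 1 positive, with a median of -0.56. They summed to 9429 to 17216 in parvocellular and 14652 to 24816 in magnocellular arrays. NEFH, a neurofilament of large neurons, had -0.66 (adjusted p = 0.00229 from limma). It was the 1 negative of the 4 measured neuron markers, while 3 were positive and the median was 0.07. The microglial gene CD68 had -0.46 (adjusted p = 0.0294 from limma). Of the 9 microglia markers 4 were positive and 5 negative, with a median of -0.01. They summed to 5854 to 9462 in parvocellular and 7916 to 12128 in magnocellular arrays. The 5 measured of 9 endothelial and mural cell markers were all higher in parvocellular layers, the direction of EPHA3, SEMA5A and UNC5B, with a median log2 difference of 0.29, none past the test and 3 at an unadjusted p under 0.05. The part of these cells in the differences of the guidance genes that go the same way was not tested.

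Of the proteins that pass guidance signals into the cell, 37 of 49 listed effectors were measured, and 1 was higher and 3 were lower in parvocellular than in magnocellular layers, where 2.25% of all probe sets were higher and 1.35% lower. VAV3, an exchange factor downstream of Eph receptors, had 3242 ± 761 (SD, n = 16) in parvocellular and 6747 ± 1500 (SD, n = 8) in magnocellular layers, a log2 difference of -1.06 (SE 0.10, adjusted p = 1.54e-07 from limma). Its relative VAV2 had -0.52 (SE 0.13, adjusted p = 0.0246) and CHN1, a Rac inactivator that acts after EphA4, -0.29 (SE 0.08, adjusted p = 0.0362). MICAL2, an actin-oxidising enzyme of the family that works downstream of plexins, had 0.67 (SE 0.19, adjusted p = 0.0425). Of 38 listed coreceptors and other cues, 29 were measured and 1 passed, against 3.6% of all probe sets. This was the proteoglycan receptor PTPRS, with 0.89 (SE 0.19, adjusted p = 0.00762). The median log2 difference was 0.03 over the effectors and -0.08 over the coreceptors and other cues, against -0.03 over all probe sets.

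Deprivation in parvocellular layers moved 1 of the 85 probe sets past the test, a rise of PLXNA2, and none fell. Over all probe sets 0.97% passed, 0.585% higher and 0.385% lower. At an unadjusted p under 0.05 there were 17 of the 85, 12 higher and 5 lower in deprived layers, against 11.4% of all probe sets. The median log2 difference of the 85 was 0.06, and that of all probe sets -0.01. The deprived and nondeprived arrays overlapped for all 85, and they stood clear of each other for 0.165% of all probe sets.

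PLXNA2 (MmugDNA.23074.1.S1_at) read 317 to 442 with a median of 359 in nondeprived and 441 to 649.6 with a median of 541 in deprived parvocellular arrays. Both ranges met only at their ends, and the deprived mean was higher in 4 of 4 LGNs. The mean was 549 ± 74.0 (SD, n = 8) with and 375 ± 50.02 (SD, n = 8) without deprivation, a log2 difference of 0.55 (SE 0.13, adjusted p = 0.0438 from limma). It was 0.50 in the animal of 2 months and 0.61 in that of 4 months, without passing in either (adjusted p = 0.516 and 0.524). The call lay close to the threshold and held in 2 of 16 runs with 1 array left out, those without the nondeprived ipsilateral layer 6 at 2 months or the deprived contralateral layer 4 at 4 months. The log2 difference lay between 0.50 and 0.61 in all these runs and settings. With layer numbers inside an animal as a replicate block in place of the LGN the adjusted p was 0.0833 from limma, after quantile normalization 0.0635 and after scaling to the same median 0.179. A second PLXNA2 probe set (MmuSTS.1191.1.S1_at) had 0.49 (SE 0.19, adjusted p = 0.269), higher in 4 of 4 LGNs, and MmugDNA.37205.1.S1_at, with a mean under 100, had -0.16. In magnocellular layers the first probe set read 339, 383, 393 and 395 without and 364, 394, 407 and 652 with deprivation. The 652 came from the array that stood apart.

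Other semaphorins and plexins had smaller or more variable differences, none of which passed. PLXNB2 (MmugDNA.14722.1.S1_at), the receptor of SEMA4C, read 688 to 1043 (median 960.4) in nondeprived and 838 to 1899 (median 1210.5) in deprived parvocellular arrays, a log2 difference of 0.48 (SE 0.13, adjusted p = 0.0928 from limma). SEMA4C (MmuSTS.4300.1.S1_at) itself read 727 to 1289 (median 894) and 811 to 1806 (median 1057), with 0.38 (SE 0.12, adjusted p = 0.162). For SEMA5A, whose values are given above, the deprivation difference was 0.54 (SE 0.16, adjusted p = 0.113), higher in 4 of 4 LGNs. All 4 plexin-B probe sets had a positive value, between 0.17 and 0.89, and 10 of 15 plexin probe sets in all. The 0.89 came from the PLXNB3 probe set, which had a mean under 100. SEMA4G (MmugDNA.30848.1.S1_at) had -0.32 (SE 0.14, adjusted p = 0.382), with a lower deprived mean in 4 of 4 LGNs. SEMA6D (MmugDNA.20800.1.S1_at), a transmembrane ligand of plexin-A1, had 4399.5 ± 983 (SD, n = 8) with and 4565 ± 632 (SD, n = 8) without deprivation.

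Among Eph receptors, EPHB1 (MmugDNA.22309.1.S1_at), a receptor for ephrin-B ligands, came nearest to the threshold. It read 572 to 837 (median 712) in nondeprived and 699 to 1338 (median 1029.7) in deprived parvocellular arrays, a log2 difference of 0.52 (SE 0.13, adjusted p = 0.0636 from limma), higher in 4 of 4 LGNs. When only probe sets with a mean of 100 or more were tested, EPHB1 passed together with PLXNA2. Its second probe set had 0.20 (adjusted p = 0.779) and EPHB3, another ephrin-B receptor, 0.47 (SE 0.20, adjusted p = 0.361). No EPHA probe set passed. A negative value was found for 9 of 10 EPHA probe sets, of 7 genes, with a median log2 difference of -0.25. A positive one was found for 3 of 5 EPHB probe sets, of 4 genes, with a median of 0.20. Of all 37623 probe sets 19283 were negative. EPHA1 (MmugDNA.24905.1.S1_s_at) had -0.45 (SE 0.15, adjusted p = 0.181), lower in 4 of 4 LGNs, and EPHA5 (MmugDNA.18810.1.S1_at) -0.46 (SE 0.18, adjusted p = 0.288), while the other EPHA5 probe set had 0.07 (SE 0.12). Of 12 ephrin probe sets 9 were positive and none passed.

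Netrin-G1 read lower in deprived layers with both NTNG1 probe sets, without passing. MmuSTS.4647.1.S1_at read 8904 to 12577 (median 10635) in nondeprived and 6985 to 10346 (median 8356) in deprived parvocellular arrays, a log2 difference of -0.29 (SE 0.10, adjusted p = 0.217 from limma). MmugDNA.10947.1.S1_at had -0.44 (SE 0.19, adjusted p = 0.365), and the deprived mean was the lower in 4 of 4 LGNs for both. NTN4 (MmuSTS.4646.1.S1_at), a laminin-related netrin, read 30.6 to 71.9 in nondeprived and 44.5 to 158 in deprived parvocellular arrays, mostly under 100, with 0.86 (SE 0.30, adjusted p = 0.229). UNC5B had 0.35 (SE 0.15, adjusted p = 0.34), ROBO1 -0.16 (SE 0.10, adjusted p = 0.616) and SLIT3 0.15 (SE 0.24, adjusted p = 0.891). All 4 netrin receptor and all 4 Slit probe sets had a positive value. The lowest Slit value, 0.02, lies within the shift that scaling gives. After scaling to the same median PLXNA2, for example, went from 0.55 to 0.52. With 1 array left out, 43 to 53 of the 85 were positive, against 48 with all arrays. The tallies of signs in parvocellular layers, here and above, thus depend on the processing and on single arrays.

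**Figure D3:**
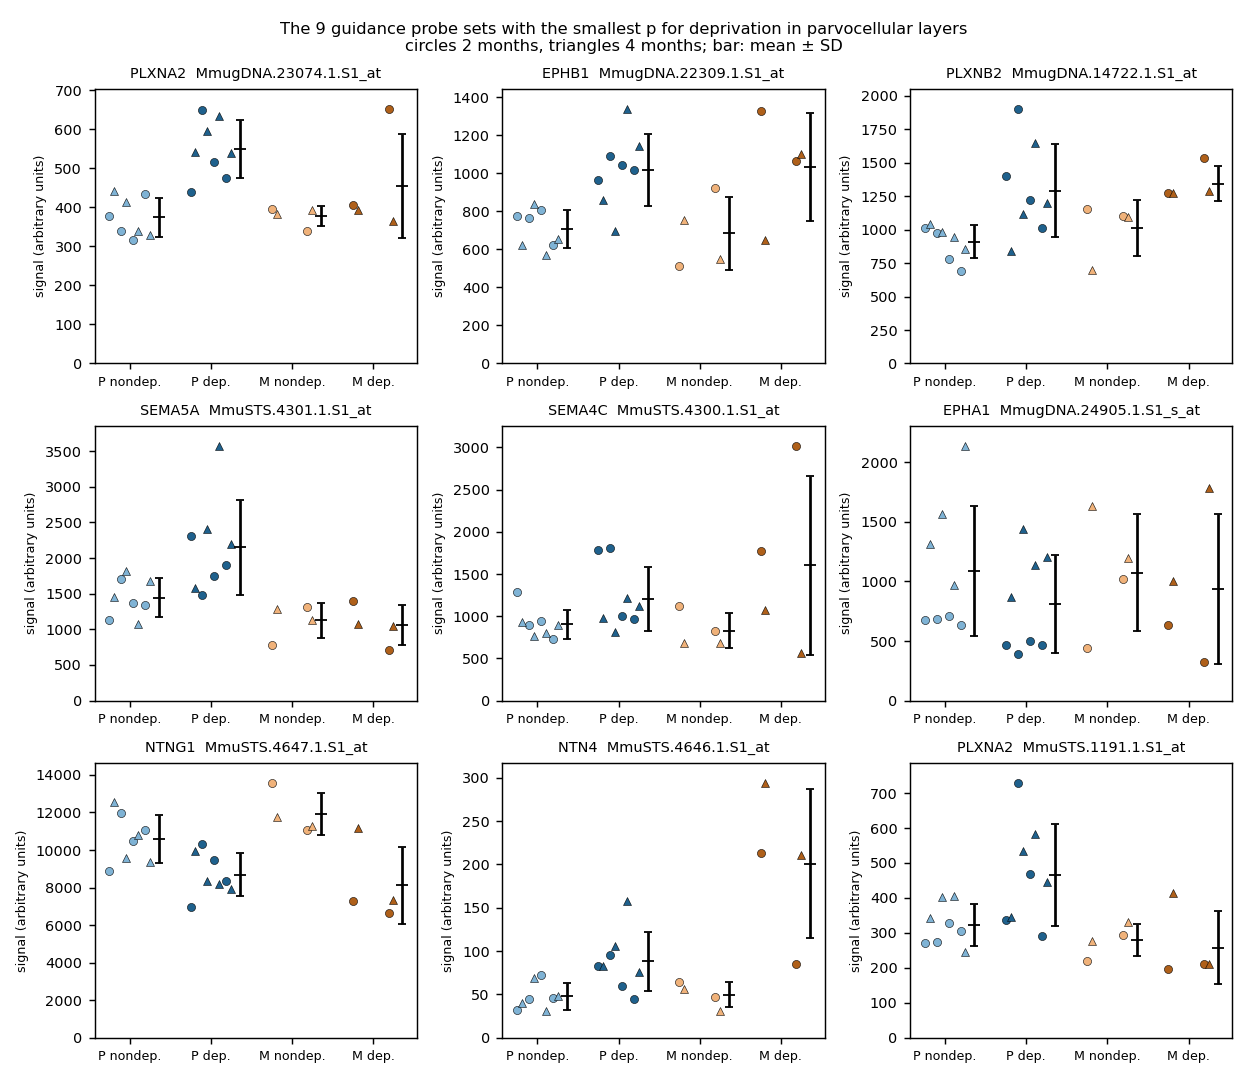
Signal (arbitrary units, axes from 0) of the 9 axon guidance probe sets with the smallest p for deprivation in parvocellular layers, by array, with circles for 2 and triangles for 4 months and bars for the mean ± SD. PLXNA2 (MmugDNA.23074.1.S1_at) is the 1 that passed, reading 441 to 649.6 with and 317 to 442 without deprivation in parvocellular (P) arrays, and deprived and nondeprived ranges overlap in all 9.

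Markers of other cells were read in the same arrays. GFAP, the intermediate filament of reactive astrocytes, rose in deprived parvocellular layers from 3283 ± 596 to 7563 ± 3633 (SD, n = 8 each), a log2 difference of 1.07 (SE 0.21, adjusted p = 0.0184 from limma). It was the 1 of 6 measured astrocyte markers that passed, and their sum was 50085 to 69880 in nondeprived and 47960 to 81924 in deprived layers. All 9 microglia markers were positive with a median of 0.30, none of them past the test, and summed to 5854 to 8308 and 6836 to 9462. Of the 5 measured GABAergic neuron markers 4 were positive, with a median of 0.29, none past the test and 2 at an unadjusted p under 0.05, and their sum was 9429 to 14936 in nondeprived and 9721 to 17216 in deprived layers. Of the 4 measured neuron markers 3 were negative, with a median of -0.16, none past the test and 2 at such a p, and their sum was 49926 to 67260 and 44421 to 58338. The part of any of these cells in the difference of PLXNA2 was not tested. No listed effector and no listed coreceptor or other cue passed for deprivation in parvocellular layers, with medians of 0.04 and 0.13.

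In magnocellular layers no probe set on the array passed the test for deprivation by limma (0%), and 5.68% were at an unadjusted p under 0.05. Of the 85, 3 were at such a p, namely NTN4, EFNA2 and 1 NTNG1 probe set. NTN4 (MmuSTS.4646.1.S1_at) read 30.8, 46.6, 55.9 and 64.6 in nondeprived and 85.4, 211, 214 and 293 in deprived magnocellular arrays, a log2 difference of 1.94 (SE 0.50, adjusted p = 0.836 from limma). EFNA2 (MmugDNA.37823.1.S1_at), a GPI-anchored ephrin, read 18.0, 19.6, 44.9 and 61.4 without and 72.2, 119, 119 and 255 with deprivation, with 2.02 (SE 0.54, adjusted p = 0.836). For NTN4 and EFNA2 the groups did not overlap, although all nondeprived readings were under 100. NTNG1 (MmuSTS.4647.1.S1_at) read 11059.8, 11287, 11746 and 13547 without and 6651, 7277, 7364 and 11175 with deprivation, with -0.58 (SE 0.25, adjusted p = 0.836), lower in 4 of 4 LGNs. Here 1 deprived array reached into the nondeprived range.

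Deprived and nondeprived magnocellular arrays did not overlap for 4 of the 85 probe sets, against 4.07% of all probe sets. Beside NTN4 and EFNA2 these were 1 probe set each of NRP1 and PLXNB2. NRP1, the coreceptor of SEMA3A and also of VEGF, read 45.3, 54.9, 61.7 and 82.4 without and 83.5, 89.0, 139 and 184 with deprivation. PLXNB2 (MmugDNA.14722.1.S1_at) read 698, 1092, 1105 and 1156 without and 1269.6, 1271, 1289.6 and 1536 with deprivation, a log2 difference of 0.43 (SE 0.27, adjusted p = 0.837 from limma). The other PLXNB2 probe set (MmugDNA.11601.1.S1_at) overlapped. SEMA4C, the ligand of plexin-B2, read 677, 681, 826 and 1118 without and 565, 1069, 1774 and 3013 with deprivation, a log2 difference of 0.73 (SE 0.35) that was 0.35 without the array that stood apart. EPHB3 (MmuSTS.4143.1.S1_at) had 0.78 (SE 0.40). With negative values came SEMA6D, with -0.74 (SE 0.38) for MmugDNA.1717.1.S1_at and -1.93 (SE 1.17) for MmugDNA.33664.1.S1_at, which reached 100 on 1 array, then SEMA4G with -0.47 (SE 0.31) and UNC50 with -0.64. All of these overlapped between the groups. With 1 array left out they ranged from 0.35 to 1.06 for SEMA4C, from 0.48 to 1.18 for EPHB3, from -1.14 to -0.25 and from -3.21 to -0.95 for the SEMA6D probe sets, from -0.63 to -0.24 for SEMA4G and from -0.94 to -0.38 for UNC50. The SEMA6D value of -1.93 was -0.35 when signals under 50 were set to 50. The median over the 85 was 0.20 and that over all probe sets 0.13. The latter turned to -0.11 when the arrays were scaled to the same median, and the number of positive values among the 85 went from 53 to 37, so that directions in magnocellular layers depend on the scaling. The 5 measured GABAergic neuron markers were all positive with deprivation, with a median of 0.59. None passed the test and 0 were at an unadjusted p under 0.05, while 22595 of all 37623 probe sets were positive. The markers summed to 14652 to 16981 in nondeprived and 18672 to 24816 in deprived magnocellular arrays. These sums did not overlap, which was so for 4.07% of single probe sets. The part of GABAergic neurons in the differences of the guidance genes was not tested.

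**Figure D4:**
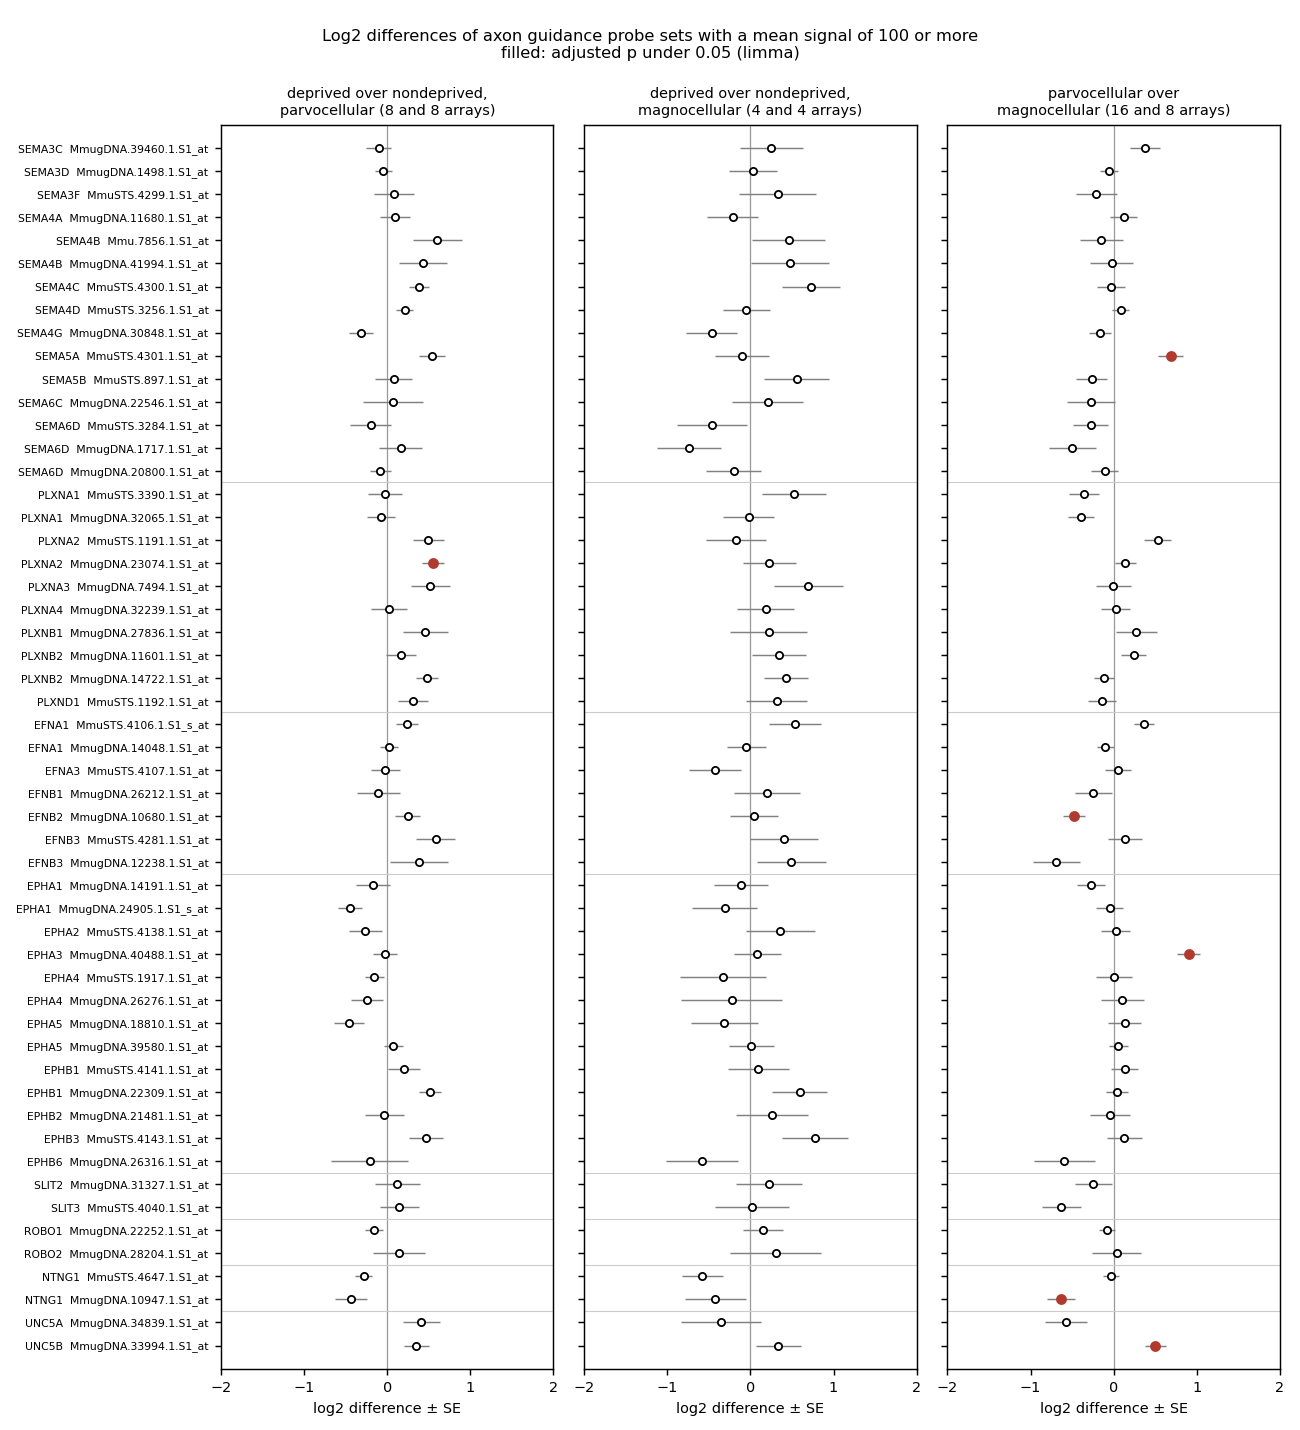
Log2 difference ± SE from limma of the same 53 probe sets, for deprivation in parvocellular layers, deprivation in magnocellular layers and layer class, with filled points for an adjusted p under 0.05. The 1 filled point on the left is PLXNA2, the middle has none, and the 5 on the right are SEMA5A, EFNB2, EPHA3, NTNG1 and UNC5B. The error bars are longer for the 8 magnocellular arrays.

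The difference between the deprivation effects of the layer classes was tested directly, and no probe set on the array passed by limma (0%), with 6.75% at an unadjusted p under 0.05. Of the 85, 5 were at such a p. The parvocellular minus the magnocellular effect was 0.65 (SE 0.30) for SEMA5A, -1.90 (SE 0.58) for EFNA2, -1.14 (SE 0.45) for NRP1 and -1.09 (SE 0.51) for NTN4, with adjusted p-values of 0.66 to 0.738. The EFNB2 probe set MmuSTS.4110.1.S1_at was the fifth, with a positive value. It was dim, reading 4.30 to 195 at 2 months and 8.12 to 151 at 4 months. The highest value among the 6 ephrin-B probe sets, and among the 85, was 2.63. For PLXNA2 it was 0.32 (SE 0.25, adjusted p = 0.825 from limma), so its effect was not shown to differ between layer classes. The parvocellular effect at 4 months minus that at 2 months, which cannot be told from a difference between animals, also passed for no probe set by limma (0%), with 3.89% at an unadjusted p under 0.05 and 4 of the 85, among them EPHA3 with 0.55 (SE 0.26) and SEMA6D (MmugDNA.20800.1.S1_at) with 0.52 (SE 0.24).

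Some guidance genes differed between the 2 animals. The 12 arrays of 1 animal stood clear of the 12 of the other for 4 of the 85 probe sets, against 1.03% of all probe sets. EPHA5 (MmugDNA.18810.1.S1_at) read 77.6 to 276 on the arrays of 2 months and 635 to 2350.0 on those of 4 months, whereas the other EPHA5 probe set read 2653 to 4595 and 2666 to 5154. EPHB6, an Eph receptor without kinase activity, went the other way, with 135 to 350.0 at 2 months and 5.49 to 100.3 at 4 months. EPHA1 (MmugDNA.14191.1.S1_at) read 108 to 271 and 272 to 581, and SEMA3D, a secreted semaphorin, 989 to 1285 and 1539 to 2939. With 1 animal for each duration there is no test of these differences, which the LGN block takes out of the comparisons above. This comparison was made after the values had been seen.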

How the data were processed

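Per the labels, RNA of single LGN layers, taken by laser capture and amplified in 2 rounds, was hybridised to an Affymetrix rhesus macaque array, 24 arrays in all. The deposited signal intensity of 52865 probe sets was made by the authors with GCOS, scaled to a common trimmed mean per array. No depth applies to arrays, and their number limits the precision. The 99 control probe sets were left out, as were probe sets under 100 on every array, which left 37623. Values under 1 were set to 1, log2 was taken, and limma 3.58.1 in R 4.3.3 was fitted with the LGN as a block and a trended eBayes prior, with Benjamini-Hochberg adjustment over all probe sets tested. Layer class came from the layer number and deprivation from side and layer. Parvocellular and magnocellular layers were fitted alone for deprivation, and all arrays together for layer class and the interaction. The layer number was checked as a pairing. The deviations of same-numbered layers of an animal correlated between -0.195 and 0.0837 in parvocellular and 0.0507 and 0.305 in magnocellular layers, so it was kept as an alternative only. The script was tested on simulated data.

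The guidance genes and the lists of effectors, coreceptors and markers were chosen with earlier results of these data known. A listed gene was represented by its probe set of highest mean. Values are given for every guidance probe set past the threshold, for the 5 in each direction with the smallest p in the comparisons of deprivation in each class and of layer class, and for the probe set of highest mean in each family. Others are named where a count or an overlap singles them out, after their values were seen. The symbols came from the platform annotation, in which 24956 probe sets have 1 gene, 361 several and 27449 none, and all 85 matched a current RefSeq gene by identifier. Alternatives were another filter, floor, offset, scaling, prior or block, each animal alone, deprived and nondeprived arrays alone, and each array left out in turn.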

Additional observations from a re-analysis of the deposited data

Results flagged for a closer look

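Among the probe sets described above, 116 groups of arrays were looked at for a highest or lowest array whose gap to the next, as a share of the range of the group, exceeded Dixon's critical value at the 95% level. Such an array was found in 11 groups (9.48%). At that level chance flags about 1 in 20 groups, and the groups share arrays and are not independent. In the array of the deprived layer 2 (magnocellular, ipsilateral, 2 months), which stands apart in RNA quality, PLXNA2 (MmugDNA.23074.1.S1_at) read 652 (others of its group 364 to 407), PLXNB2 1536 (1269.6 to 1289.6), PLXNA1 (MmugDNA.32065.1.S1_at) 1809 (737 to 903) and SEMA6D (MmugDNA.33664.1.S1_at) 86.9 (2.02 to 15.0). The part of RNA quality in these 4 readings was not tested. In the deprived ipsilateral layer 3 at 4 months, SEMA5A read 3568 (1481 to 2405) and EFNB2 (MmugDNA.10680.1.S1_at) 829 (345 to 572). In the nondeprived contralateral layer 3 at 2 months, SEMA4C read 1289 (727 to 939) and EPHB3 586 (95.9 to 277). In the deprived contralateral layer 1 at 4 months, NTNG1 (MmuSTS.4647.1.S1_at) read 11175 (6651 to 7364) and PLXNA2 (MmuSTS.1191.1.S1_at) 413 (198 to 212). In the nondeprived contralateral layer 2 at 4 months, PLXNB2 read 698, below the others at 1092 to 1156.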

How the results depend on the processing

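For deprivation in parvocellular layers the number of guidance probe sets that passed was 1 (PLXNA2). It was 0 at 2 months alone, at 4 months alone, without the eBayes trend, without the LGN block, after quantile normalization and after scaling to the same median, and 2 (PLXNA2 and EPHB1) among probe sets with a mean of 100 or more. A replicate block of layer numbers inside an animal gave 0 as well. With 1 array left out it ranged from 0 to 2, and was 0 in 12 of 16 runs. Between layer classes the number was 5. It was 1 (EPHA3) at 2 months alone, at 4 months alone and in nondeprived arrays alone, 0 in deprived arrays alone, 2 (EPHA3 and SEMA5A) without the LGN block, and 3 (EPHA3, SEMA5A and UNC5B) with no filter, after quantile normalization and after scaling to the same median. With 1 array left out it ranged from 2 to 6. Fits of fewer arrays have fewer degrees of freedom, and for the other settings the cause was not tested. For deprivation in magnocellular layers it was 0 in the 11 settings and the 8 runs with 1 array left out, and for the interactions it was 0 in the 3 settings tried, and for that with layer class also without the array that stood apart. The probe sets past the threshold and the 5 in each direction with the smallest p were recomputed singly. None reversed in 270 values for deprivation in parvocellular layers, 186 in magnocellular layers and 360 for layer class. A call was lost in 21 of the 270 and in 58 of the 360, and gained in 4 and 3. Most of these values are of probe sets with no call to lose. All 21 losses were of PLXNA2, whose call held in 4 of 11 settings and 2 of 16 runs with 1 array left out. For layer class the call of EFNB2 held in 3 of 12 settings and 4 of 24 such runs, and that of NTNG1 in 4 and 15. EPHA3 held in 11 and 24, SEMA5A in 8 and 24, and UNC5B in 7 and 22. The recomputed probe sets were picked by p from mostly the same arrays, so little is read from the kept directions. Other printed differences were not recomputed singly, and small ones, most of all in magnocellular layers, lie within the shift that scaling gives. Over all probe sets, those passing for deprivation in parvocellular layers numbered 1 to 598 by setting (365 as reported) and 136 to 457 with 1 array left out, for layer class 86 to 1685 (1355) and 960 to 1872, and in magnocellular layers 0 to 46 (0) and 0 to 9. Scaling to the same median moved the median log2 difference of all probe sets in magnocellular layers from 0.13 to -0.11. Readings under 100 are near background and their fold changes are the least precise, and 1 animal for each duration bears on every value.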
